A study of Mus musculus with 4 samples.

Results

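The genes described here are 38 interferon-induced genes, chosen by symbol as a list with earlier results of these data known, out of 24411 symbols in the count table. All 38 were in the table, had counts in every library and passed the filter on low counts. They were measured by RNA sequencing in pro-B cells, an early stage of B cell development in the marrow, sorted as B220+CD43+HSA+ cells from C57BL/6 mice. All 4 mice carried mb1Cre, a Cre recombinase driven from the Cd79a locus in B-lineage cells. The 2 controls (mice 55 and 69) were Tnpo3+/+ mb1Cre, and the 2 knockouts (mice 51 and 63) were Tnpo3fl/fl mb1Cre. Tnpo3 encodes a nuclear import receptor for splicing factors. Ages of the mice were not given in the sources used here.

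Interferons are cytokines, and those of type I are released when cells sense viral nucleic acid. Type I interferons bind the receptor made of IFNAR1 and IFNAR2, whose kinases activate a complex that includes STAT2 and IRF9. The complex binds interferon-stimulated response elements (ISRE) upstream of its target genes. Interferon gamma signals through another receptor. Target proteins degrade or edit RNA, modify other proteins, restrict membrane fusion and feed back on the pathway. In bone marrow, plasmacytoid dendritic cells are known as strong producers of type I interferon and natural killer (NK) cells of interferon gamma.

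Total counts ran from 26211372 to 40647384 per library. Values are CPM (counts divided by the TMM-scaled library total and brought to one common total), with n = 2 mice per genotype, and adjusted p-values are from edgeR's quasi-likelihood test over 13507 genes with Benjamini-Hochberg adjustment and a threshold of 0.05. Tnpo3 was at 159 and 148 CPM in control mice 55 and 69, against 79.7 and 68.8 CPM in knockout mice 51 and 63, a log2 fold change of -1.05 ± 0.14 (SE) with an adjusted p of 0.0108. Without knockout 63 it was -0.94 with an adjusted p of 0.0603. Of 12 pro-B marker genes, 9 fell and 0 rose in edgeR, and their summed level was 9108 and 11078 CPM in the controls and 3508 and 2761 CPM in the knockouts. Of 12 markers of plasmacytoid dendritic cells, 10 rose and 0 fell, from sums of 3105 and 1428 CPM to 5716 and 8381 CPM. No marker of either list was at 0 in any library. Of 10 tested NK markers, 6 rose and 0 fell, with sums of 44.8 and 42.3 CPM in the controls, 1023 CPM in knockout 51 and 241 CPM in knockout 63. Klra8 was at 0 in both controls and in knockout 63. Of 12 neutrophil markers, 12 fell, from sums of 4797 and 3786 CPM to 222 and 53.5 CPM. Markers of eosinophils, basophils and mast cells fell for 9 of 11 tested genes and erythroid markers for 8 of 11, and none of either list rose. Of 12 markers of conventional dendritic cells, 7 rose and 1 fell, of 12 monocyte and macrophage markers 6 rose and 4 fell, and of 12 T cell markers 4 rose and 0 fell. Bulk counts cannot tell fewer or more cells of a type from less or more RNA per cell. What part these cells had in the values of the interferon-induced genes was not tested.

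Of the 38 interferon-induced genes, 16 rose in the knockout and 0 fell, and 22 did not pass. Among all genes tested, 11.3% were called higher and 10.9% lower. Before adjustment, 22 members were higher and 1 (Oas2) was lower at p under 0.05, a cut at which no share of all genes was taken. DESeq2 called 20 members higher and 1 lower, and of all genes 2056 higher and 1901 lower. With limma-voom the members had 18 and 0 calls, and all genes 1546 and 1526. The main fit called 1524 and 1468 of all genes. The median log2 fold change of the members was 0.69, against -0.02 for all genes tested. Both knockouts lay above both controls for 25 members, where 33% of all genes did so, and below both controls for 2 members, where 34.6% of all genes did. The summed level of the members was 2060 and 2036 CPM in control mice 55 and 69, against 3936 and 3463 CPM in knockout mice 51 and 63. With a library left out, the median of the members lay between 0.61 (without knockout 51) and 1.12 (without control 69). Fewer members were called higher without either knockout, and so were fewer of all genes.

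**Figure D1:**
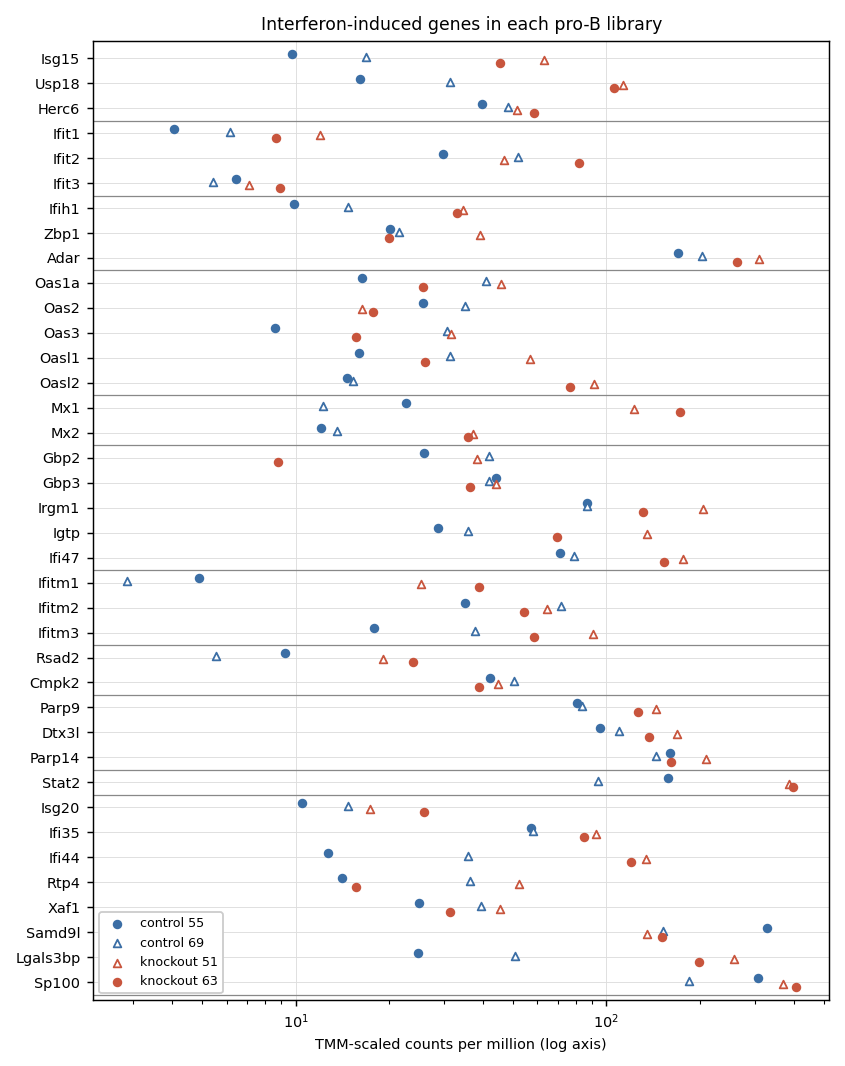
Levels of the 38 members in each library, as TMM-scaled CPM on a log axis, with lines between groups of related proteins. Blue points are controls 55 (circle) and 69 (triangle), red points knockouts 63 (circle) and 51 (triangle). Mx1, Ifitm1, Oasl2 and Lgals3bp stand apart by genotype, while the points of Oas1a, Oas3, Gbp2 and Rtp4 overlap between genotypes.

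**Figure D2:**
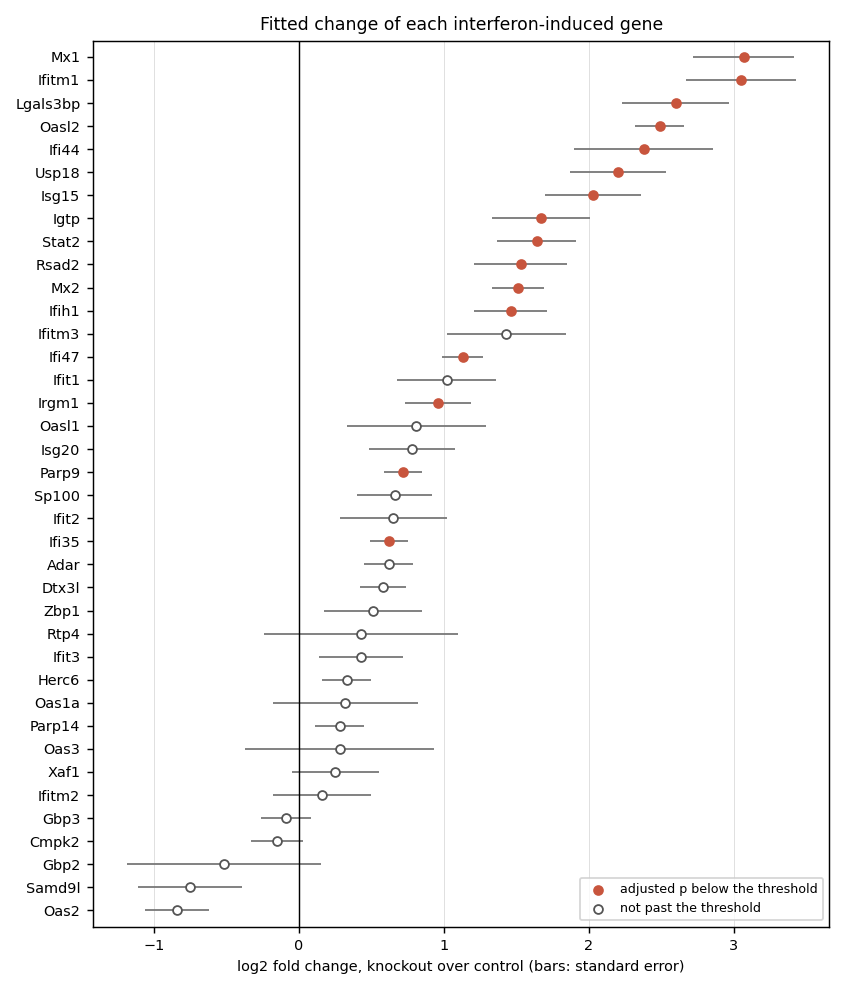
Fitted log2 fold change of each member in knockout over control, with its standard error as a bar. Filled points passed an adjusted p of 0.05 in edgeR. The 16 filled points lie between 0.62 (Ifi35) and 3.07 (Mx1), and the open points between -0.84 (Oas2) and 1.43 (Ifitm3).

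The letters of the ISRE core (TTTC, any 2 bases, TTTC) were searched on both strands in the 250 bases before each annotated transcription start (RefSeq, GRCm38.p6). A window was given for 30 of the 38 members, and 12 of these (40%) held a match, against 3.46% of 27025 genes. The match was present in 5 of 12 members that rose (41.7%) and in 7 of 18 that did not pass (38.9%), a description with no test. The letters TTC, any 3 bases, GAA, which read the same on both strands and form the core of the gamma-activated site of interferon gamma responses, were found in 4 of the 30 members (13.3%) and in 8.13% of all genes. In Igtp a match to these letters at bases -45 to -37 stood just upstream of the ISRE core match at -34 to -25. The windows below are the 4 members with a match and the highest mean CPM (Stat2, Irgm1, Igtp and Ifitm2), together with Isg15, Rsad2 and Cmpk2. The latter were added after their values were seen, Isg15 for its run of matches, and Rsad2 and Cmpk2 as neighbours of which 1 rose. They are written 5′ to 3′ on the strand of the gene, end at the base before the start, and carry ISRE core matches in capitals.
Isg15: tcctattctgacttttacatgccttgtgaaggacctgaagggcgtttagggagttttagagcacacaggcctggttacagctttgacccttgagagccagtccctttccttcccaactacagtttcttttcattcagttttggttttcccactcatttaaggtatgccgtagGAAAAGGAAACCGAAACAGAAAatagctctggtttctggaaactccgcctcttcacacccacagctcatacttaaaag
Irgm1: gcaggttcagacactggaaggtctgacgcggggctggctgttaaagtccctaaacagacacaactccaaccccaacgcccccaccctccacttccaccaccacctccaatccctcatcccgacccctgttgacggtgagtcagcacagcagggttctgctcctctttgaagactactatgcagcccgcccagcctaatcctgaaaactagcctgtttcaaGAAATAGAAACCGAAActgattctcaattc
Igtp: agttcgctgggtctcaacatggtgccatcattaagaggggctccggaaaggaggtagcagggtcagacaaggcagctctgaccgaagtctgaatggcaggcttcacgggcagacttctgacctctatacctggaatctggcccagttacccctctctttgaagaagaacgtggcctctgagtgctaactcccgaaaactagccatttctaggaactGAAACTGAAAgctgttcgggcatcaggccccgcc
Stat2: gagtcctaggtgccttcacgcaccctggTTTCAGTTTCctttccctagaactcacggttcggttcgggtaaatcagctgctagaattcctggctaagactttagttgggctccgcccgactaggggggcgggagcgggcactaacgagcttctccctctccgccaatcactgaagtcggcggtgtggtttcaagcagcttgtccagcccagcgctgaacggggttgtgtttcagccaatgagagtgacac
Rsad2: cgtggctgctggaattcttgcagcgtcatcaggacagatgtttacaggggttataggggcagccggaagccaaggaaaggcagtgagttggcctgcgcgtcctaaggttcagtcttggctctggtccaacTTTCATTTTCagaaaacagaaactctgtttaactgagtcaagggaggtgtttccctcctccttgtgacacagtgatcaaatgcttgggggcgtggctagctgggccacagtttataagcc
Cmpk2: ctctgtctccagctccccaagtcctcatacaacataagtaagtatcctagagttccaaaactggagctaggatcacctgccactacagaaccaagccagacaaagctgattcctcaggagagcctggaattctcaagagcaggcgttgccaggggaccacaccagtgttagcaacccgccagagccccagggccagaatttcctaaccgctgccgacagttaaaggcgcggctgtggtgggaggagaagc
Ifitm2: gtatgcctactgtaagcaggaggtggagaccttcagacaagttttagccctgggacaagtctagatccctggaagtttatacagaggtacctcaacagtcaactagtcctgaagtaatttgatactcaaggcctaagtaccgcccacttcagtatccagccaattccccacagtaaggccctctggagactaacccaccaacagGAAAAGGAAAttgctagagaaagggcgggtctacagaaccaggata
The window of Isg15 lies at chr4:156200819-156201068 on the minus strand, and its 3 overlapping matches span bases -78 to -57 before the start. That of Irgm1 (chr11:48871421-48871670, minus strand) has 2 overlapping matches from -30 to -15. Igtp (chr11:58199306-58199555, plus strand), Stat2 (chr10:128270248-128270497, plus), Rsad2 (chr12:26456453-26456702, minus) and Ifitm2 (chr7:140955962-140956211, minus) have 1 match each. The Cmpk2 window (chr12:26468965-26469214, plus) has none. The windows of Cmpk2 and Ifitm2 precede transcript starts that lie inside the annotated gene. The outermost annotated base at the 5′ end is 26469117 for Cmpk2 and 140959686 for Ifitm2. The 250 bases before those outer ends were not fully searched. The ISRE core matches of Ifit3, Gbp3, Oas1a and Oas3 likewise lie before transcript starts inside the annotated gene. A match describes letters only, and none of these windows was assayed for binding.

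**Figure D3:**
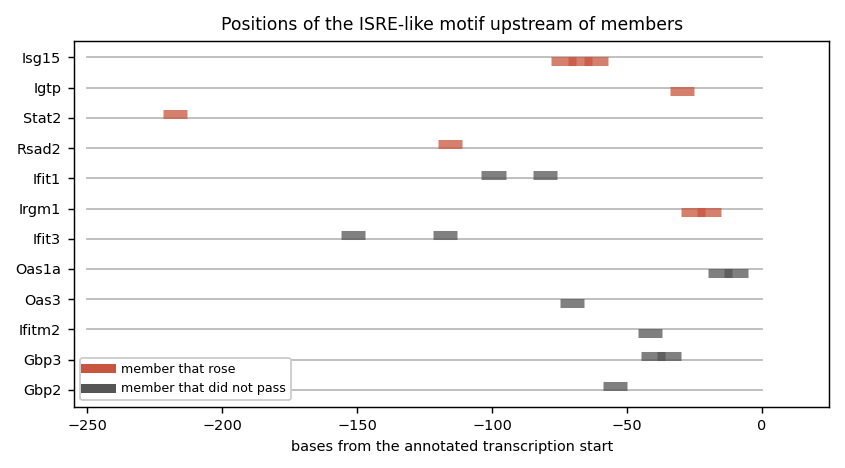
Positions of ISRE core matches (TTTC, any 2 bases, TTTC, on either strand) in the 250 bases before the annotated start of the 12 members that have one, ordered by fold change, with bars above the line for the gene's own strand and below it for the other strand. Members that rose (red) and that did not pass (grey) both carry matches, and 9 of the 12 have a match within 100 bases of the start. For Ifit3, Gbp3, Oas1a, Oas3 and Ifitm2 that start lies inside the annotated gene.

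Isg15, a ubiquitin-like protein that is attached to other proteins, was at 9.72 and 16.8 CPM in control mice 55 and 69, against 62.9 and 45.3 CPM in knockout mice 51 and 63. Both knockouts were above both controls, and Isg15 rose by 2.03 ± 0.33 on the log2 scale (SE, adjusted p = 0.0158). Usp18, the protease that removes ISG15 and also restrains the type I interferon receptor, was at 16.1 and 31.4 CPM in the controls and 113 and 106 CPM in the knockouts. Its groups did not overlap either, and it rose by 2.20 ± 0.33 (adjusted p = 0.0134). The ratio of Usp18 to Isg15 counts within a library was 1.65 and 1.87 in the controls and 1.79 and 2.34 in the knockouts. Herc6, a ligase for ISG15 in mice, was at 39.8 and 48.2 CPM in control mice and 51.5 and 58.7 CPM in knockout mice, and did not pass (adjusted p = 0.232).

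Stat2, the member that belongs to the signalling complex itself, was at 158 and 93.9 CPM in the controls and 388 and 398 CPM in the knockouts. It rose by 1.64 ± 0.27 on the log2 scale (adjusted p = 0.0159), and the groups did not overlap. Without control 69 its log2 fold change was 1.32, and without control 55 it was 2.10.

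The IFIT genes, whose products bind foreign RNA, did not pass in edgeR. Ifit1 was at 4.07 and 6.16 CPM in control mice and 12 and 8.66 CPM in knockout mice, with a log2 fold change of 1.02 ± 0.34 and an adjusted p of 0.0914. DESeq2 gave Ifit1 an adjusted p of 0.0352. Ifit3 was at 6.42 and 5.41 CPM in control mice and 7.06 and 8.93 CPM in knockout mice. Ifit2 was the most abundant of the family per kilobase of exon (10.7 CPM per kb in controls and 16.8 in knockouts, means) and overlapped between genotypes, at 29.8, 51.9, 46.7 and 81.6 CPM in control mice 55 and 69 and knockouts 51 and 63. The log2 fold change of Ifit2 was 0.65 (adjusted p = 0.258), 1.10 without control 69 (0.0448) and 0.19 without knockout 63 (0.796). Within a library the ratio of Isg15 to Ifit1 counts was 2.39 and 2.73 in controls and 5.25 and 5.23 in knockouts.

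Among sensors of nucleic acid, Ifih1, which encodes the double-stranded RNA sensor MDA5, was at 9.87 and 14.7 CPM in control mice and 34.6 and 33.0 CPM in knockout mice. It rose by 1.46 ± 0.25 on the log2 scale (adjusted p = 0.0176), and the adjusted p was 0.0539 without knockout 51 and 0.0511 without knockout 63. Zbp1, a sensor of left-handed nucleic acid that can trigger cell death, was at 20.2 and 21.5 CPM in control mice, 39.3 CPM in knockout 51 and 20.0 CPM in knockout 63. Knockout 63 was therefore level with the controls. Adar, which edits adenosine to inosine in double-stranded RNA, was at 170 and 203 CPM in control mice and 309 and 264 CPM in knockout mice. Its log2 fold change was 0.62 ± 0.17, with an adjusted p of 0.0513 in edgeR and 0.0106 in DESeq2.

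Of the 5 OAS family members, 1 rose. These enzymes make oligoadenylates that switch on RNase L, and mouse Oasl1 is an inactive relative that holds back the translation of Irf7. Oasl2 was at 14.6 and 15.3 CPM in control mice and 91.4 and 76.3 CPM in knockout mice, and rose by 2.49 ± 0.17 on the log2 scale (adjusted p = 0.00463), the lowest adjusted p of the 38 members. Oasl1, its neighbour 10.9 kb away, was at 16.0 and 31.3 CPM in control mice and 56.8 and 26.1 CPM in knockout mice, with overlap and an adjusted p of 0.268. The ratio of Oasl2 to Oasl1 counts was 0.914 and 0.490 in the controls and 1.61 and 2.93 in the knockouts. Oas1a (16.3 and 41 against 45.8 and 25.7 CPM) and Oas3 (8.56 and 30.7 against 31.7 and 15.6 CPM) overlapped between genotypes and varied more between mice of 1 genotype than between the genotype means. Oas2 was the member with the lowest fold change, at 25.7 and 35.1 CPM in control mice and 16.3 and 17.7 CPM in knockout mice. Both knockouts were below both controls, with a log2 fold change of -0.84 ± 0.22 and an adjusted p of 0.0507 that crossed the threshold in 7 of 11 alternatives. Reads of Oas1a may be shared with its close paralogs.

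Both Mx genes, dynamin-like GTPases that block viruses, rose. Mx1 was at 22.7 and 12.3 CPM in control mice and 123 and 172 CPM in knockout mice, a rise of 3.07 ± 0.35 on the log2 scale (adjusted p = 0.0077) and the largest fitted fold change of the 38 members. C57BL/6 mice carry a defective Mx1 allele. Mx2 was at 12.1 and 13.6 CPM in control mice and 37.3 and 35.9 CPM in knockout mice, a rise of 1.51 ± 0.18 (adjusted p = 0.0087). The mice of each genotype were close for Mx2, with SDs of 1.08 and 0.997 CPM.

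Of the 5 members that are interferon-inducible GTPases acting on the vacuoles of intracellular pathogens, the 3 immunity-related GTPase genes rose. The 2 guanylate-binding protein genes did not pass. Outside the members the families did not divide this way. Gbp4, Gbp6 and Gbp8 rose, Gbp9 fell, and Gbp5 and Gbp7 did not pass. Of further immunity-related GTPase genes, Iigp1 and Irgm2 rose, and Tgtp1 and Tgtp2 did not pass. Irgm1 was at 86.4 and 86.3 CPM in control mice, 205 CPM in knockout 51 and 131 CPM in knockout 63, and rose by 0.96 ± 0.23 on the log2 scale (adjusted p = 0.0388). Igtp was at 28.7 and 35.9 CPM in control mice, 135 CPM in knockout 51 and 69.6 CPM in knockout 63, and rose by 1.67 ± 0.34 (adjusted p = 0.0263). Both were higher in knockout 51, as were 27 of the 38 members. Ifng and most NK, neutrophil, pro-B, T cell and monocyte markers were also higher in that library. What part these had was not tested. Without knockout 51 the log2 fold change was 0.60 for Irgm1 (adjusted p = 0.13) and 1.11 for Igtp (adjusted p = 0.0531). Ifi47 was at 71.0 and 78.8 CPM in control mice and 176 and 153 CPM in knockout mice, and its rise of 1.13 ± 0.14 passed with each library left out. The annotated exons of Igtp overlap Irgm2, and those of Ifi47 overlap Olfr56. Of the guanylate-binding proteins, Gbp3 was at 44.0, 42.0, 44.2 and 36.5 CPM in control mice 55 and 69 and knockouts 51 and 63. Gbp2 was at 25.8 and 41.9 CPM in control mice, 38.3 CPM in knockout 51 and 8.76 CPM in knockout 63, so 1 knockout lay between the controls and the other below both. Its log2 fold change was -0.52 ± 0.67 (adjusted p = 0.611) and -1.95 without knockout 51 (0.0385).

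The IFITM proteins hinder the fusion of viral and cellular membranes. Ifitm1 was at 4.89 and 2.86 CPM in control mice and 25.4 and 38.9 CPM in knockout mice, a rise of 3.05 ± 0.38 on the log2 scale (adjusted p = 0.00904). Ifitm3 was at 17.9 and 37.7 CPM in control mice and 90.8 and 58.4 CPM in knockout mice. Its groups did not overlap, but with a log2 fold change of 1.43 ± 0.41 it missed the threshold (adjusted p = 0.0596), which it passed with DESeq2 (0.00278) and limma-voom (0.0405). Ifitm2 was at 35.2, 71.2, 64.6 and 54.2 CPM in control mice 55 and 69 and knockouts 51 and 63, with overlap, and passed without control 69 (log2 fold change 0.76, adjusted p = 0.0343). These 3 genes are neighbours on chromosome 7. The ratio of Ifitm1 to Ifitm2 counts within a library was 0.139 and 0.0401 in controls and 0.393 and 0.719 in knockouts. Per kilobase of exon, Ifitm2 had the highest mean level of all members in the controls (81.2 CPM per kb) and Ifitm3 in the knockouts (110 CPM per kb).

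Rsad2 and Cmpk2 are neighbours on chromosome 12 that point away from each other, with 12.7 kb between them. Rsad2 encodes viperin, which makes a nucleotide that stops viral RNA synthesis. It was at 9.23 and 5.56 CPM in control mice and 19.1 and 23.8 CPM in knockout mice, and rose by 1.53 ± 0.32 on the log2 scale (adjusted p = 0.0281). Without knockout 63 the adjusted p was 0.0984, and without knockout 51 it was 0.0519. Cmpk2, a mitochondrial nucleotide kinase, was at 42.3 and 50.3 CPM in control mice and 44.7 and 38.9 CPM in knockout mice, with a log2 fold change of -0.15 ± 0.18. The ratio of Rsad2 to Cmpk2 counts was 0.218 and 0.111 in controls and 0.426 and 0.611 in knockouts. With 2 mice per genotype an exact permutation test of such a ratio cannot give a two-sided p below 0.333.

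Parp9 and Dtx3l encode partners, an ADP-ribosyltransferase family protein and a ubiquitin ligase, and their exons overlap on opposite strands, so reads of the overlap cannot be told apart without strand. Parp9 was at 80.2 and 83.2 CPM in control mice and 144 and 126 CPM in knockout mice, and rose by 0.72 ± 0.13 on the log2 scale (adjusted p = 0.021). Dtx3l was at 95.4 and 110 CPM in control mice and 169 and 137 CPM in knockout mice, with 0.58 ± 0.16 and an adjusted p of 0.0596. Their count ratio lay between 0.756 and 0.917 in the 4 libraries. Parp14, a related enzyme, was at 160 and 144 CPM in control mice and 209 and 161 CPM in knockout mice and did not pass (adjusted p = 0.287). The adjusted p of Parp9 was 0.123 without knockout 51 and 0.0749 without knockout 63.

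Of the 8 other members, 3 rose. Lgals3bp, a secreted glycoprotein, was at 24.8 and 50.7 CPM in control mice and 257 and 199 CPM in knockout mice, a rise of 2.60 ± 0.37 on the log2 scale (adjusted p = 0.0121). Ifi44 was at 12.7 and 35.9 CPM in control mice and 134 and 120 CPM in knockout mice, a rise of 2.38 ± 0.48 (adjusted p = 0.0259, or 0.0515 without knockout 51). Without control 55 the rise of Ifi44 was 1.85, and without control 69 it was 3.32. Ifi35 was at 57.2 and 58.1 CPM in control mice and 92.9 and 84.8 CPM in knockout mice, a rise of 0.62 ± 0.13 (adjusted p = 0.0286) that had adjusted p-values of 0.176 without knockout 51 and 0.126 without knockout 63. Isg20, an RNA exonuclease, was at 10.5 and 14.7 CPM in control mice and 17.3 and 25.8 CPM in knockout mice and did not pass. Sp100, a nuclear body protein, was at 307 and 185 CPM in control mice and 370 and 407 CPM in knockout mice (log2 fold change 0.66, adjusted p = 0.131, or 1.10 and 0.00971 without control 55). Samd9l, which restrains cell growth and translation, was at 329 and 152 CPM in control mice and 135 and 151 CPM in knockout mice. Its knockouts were below both controls, with control 69 close to knockout 63, and it did not pass (log2 fold change -0.75, adjusted p = 0.19). Without control 69 it was called lower at -1.20 (adjusted p = 0.00262), and without control 55 it was at -0.06. Rtp4 was at 14.1, 36.5, 52.3 and 15.6 CPM and Xaf1 at 25, 39.6, 45.3 and 31.3 CPM in control mice 55 and 69 and knockouts 51 and 63. Both overlapped between genotypes.

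The mice within a genotype also differed. Control 69 was higher than control 55 for 28 of the 38 members, with a median log2 ratio of 0.27, against 50% of all genes tested and a median of 0.00. The markers of plasmacytoid dendritic cells went the other way, with 12 of 12 higher in control 55 and a median log2 ratio of -2.04. Every other marker list except pro-B and T cells also had most genes higher in control 55. Among them were conventional dendritic (9 of 12, -0.63), NK (7 of 10, -0.46) and neutrophil markers (9 of 12, -0.33). Pro-B and T cell markers went with the members, with 8 of 12 higher in control 69 in each list (0.21 and 0.33). Among the 16 members that rose, 11 were higher in control 69, and the 5 higher in control 55 were Mx1, Ifitm1, Rsad2, Stat2 and, with nearly equal values, Irgm1. Knockout 51 was higher than knockout 63 for 27 of the 38 members, with a median log2 ratio of 0.21, against 48.9% of all genes. NK markers were higher in knockout 51 for 9 of 10 tested genes, with a median log2 ratio of 3.23, and neutrophil markers for 12 of 12 (2.11). The same held for pro-B markers in 11 of 12 (0.39), monocyte and macrophage markers in 10 of 12 (0.50) and T cell markers in 9 of 12 (0.62). Plasmacytoid dendritic markers were higher in knockout 63 for 8 of 12, conventional dendritic markers for 7 of 12, erythroid markers for 8 of 11 and plasma cell markers for 7 of 10.

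**Figure D4:**
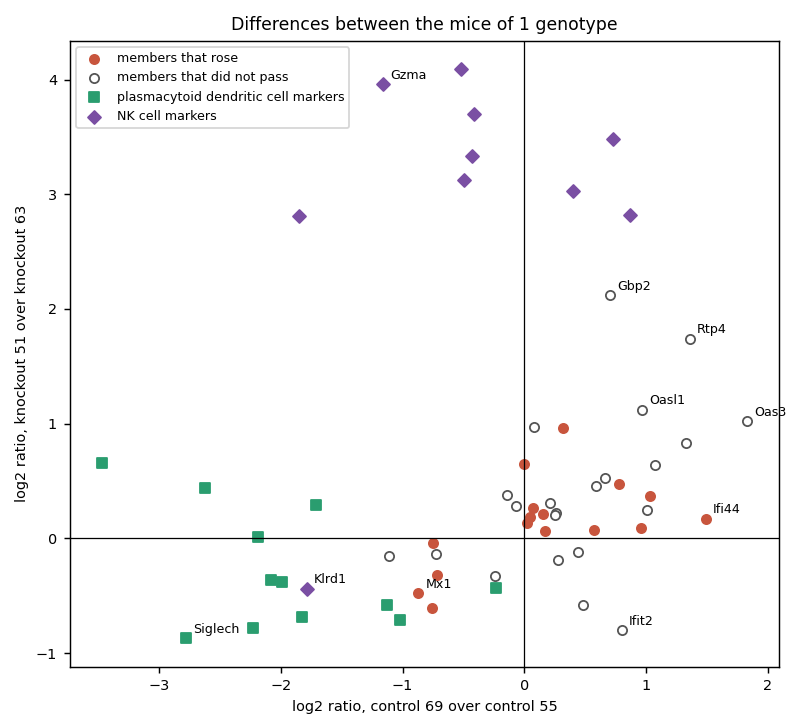
Log2 ratio of control 69 to control 55 (horizontal) and of knockout 51 to knockout 63 (vertical) for members that rose (red), members that did not pass (open), 12 plasmacytoid dendritic markers (green squares) and 10 NK markers (purple diamonds). All green squares and 7 of the 10 purple diamonds lie left of 0, while 28 of the 38 members lie right of it. Rtp4, Oas3, Oasl1 and Gbp2 are high in both 69 and 51.

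Xist and Y-linked genes showed that each genotype held 1 female (control 55 and knockout 63) and 1 male (control 69 and knockout 51), so sex and individual cannot be told apart within a genotype. The male was above the female in both genotypes for 24 of 38 members, where 31.1% of all genes tested did so, and the female above the male for 7, where 32% did. At a ratio of 1.5 or more in both genotypes, the male was higher for 6 members (Oas1a, Oas3, Oasl1, Gbp2, Ifitm3 and Rtp4), against 3.41% of all genes, and the female for 1 (Ifitm1), against 3.04%. None of these 7 passed the sex term of an edgeR fit with sex and genotype, which has 1 residual degree of freedom. After adjustment the sex term called 0 of the 38 members, 0.0296% of all genes higher in males and 0.0074% higher in females. At an unadjusted p under 0.05, 12 members were higher and 4 lower in males. No share of all genes was taken at that cut, so these 2 counts have no background. With sex as a block, 23 members passed for genotype, 22 higher and 1 lower. Calls over all 13507 genes also rose, to 2137 higher and 2186 lower, from 1524 and 1468 without the block. The members gained were Ifit1, Adar, Oas2, Oasl1, Ifitm3, Dtx3l and Sp100.

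The rest of the pathway was read from 5 lists. The interferons themselves were near the limit of detection. Of 21 interferon genes, 20 had 0 counts in both controls and at most 3 counts in either knockout, where 3 counts are 0.0743 to 0.113 CPM. Ifnb1, the type I interferon most cells make, had 0 counts in both controls and 2 and 3 counts in knockouts 51 and 63. The exception was Ifng, interferon gamma, at 1.04 and 0.413 CPM in the controls, 15.3 CPM in knockout 51 and 1.16 CPM in knockout 63, with an adjusted p of 0.104. Reads of the Ifna genes may be shared between paralogs.

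Receptor and signalling genes were largely higher in the knockout, with 8 of 12 called higher, 1 lower and a median log2 fold change of 0.71. Ifnar2, the signalling chain of the type I receptor, was at 72.3 and 62.6 CPM in control mice and 239 and 287 CPM in knockout mice, a rise of 1.96 ± 0.16 (adjusted p = 0.00497). Its partner Ifnar1 rose by 0.98 ± 0.14, with an adjusted p of 0.013 that was 0.0617 without knockout 63. Tyk2, a kinase bound to IFNAR1, was at 106 and 84.8 CPM in control mice and 166 and 174 CPM in knockout mice, a rise of 0.84 ± 0.16 (adjusted p = 0.0214, or 0.0718 without knockout 51 and 0.0984 without knockout 63). Irf9 rose by 0.58 ± 0.12 (adjusted p = 0.0298). Its adjusted p was 0.17 without knockout 51, 0.131 without knockout 63 and 0.0527 without control 69. The interferon gamma receptor chains did not pass, with Ifngr1 at -0.01 ± 0.19 and Ifngr2 at -0.48 ± 0.19. Ifnlr1, the receptor chain for interferon lambda, fell from 6.51 and 14.0 CPM in control mice to 0.842 and 0.365 CPM in knockout mice, while its shared partner chain Il10rb rose by 1.26 ± 0.17.

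Among 20 genes of nucleic acid sensing upstream of interferon, 6 rose, 2 fell and the median was 0.50. Irf7, the factor that drives type I interferon genes and is itself interferon-induced, was at 43.9 and 44.5 CPM in control mice and 599 and 433 CPM in knockout mice. It rose by 3.54 ± 0.21 (adjusted p = 0.00431), a larger fitted fold change than that of any of the 38 members. Tlr7, an endosomal RNA receptor and like Irf7 abundant in plasmacytoid dendritic cells, rose by 3.41 ± 0.39. The controls were nearly level for Irf7, while Tlr7 was at 33.6 CPM in control 55 and 16.0 CPM in control 69. The DNA sensing genes Mb21d1 (cGAS) and Tmem173 (STING) rose by 1.94 ± 0.31 and 1.49 ± 0.18. Ddx58, the RNA sensor RIG-I, went against Ifih1 and fell from 122 and 86.6 CPM to 46.8 and 30.4 CPM (log2 fold change -1.43 ± 0.27, adjusted p = 0.0228).

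Of 17 genes that hold the pathway back, 3 rose and 3 fell, with a median of -0.11. Trex1, the exonuclease that clears cytosolic DNA, was at 27.9 and 24.3 CPM in control mice and 126 and 123 CPM in knockout mice, a rise of 2.25 ± 0.14 (adjusted p = 0.0044). Socs3 and the phosphatase gene Ptpn1 also rose, and Tnfaip3, Irf2 and Pias1 fell. Socs1, a feedback inhibitor of JAK kinases, was at 26.7 and 16.1 CPM in control mice and 18.8 and 8 CPM in knockout mice and did not pass (adjusted p = 0.346). Socs3, Ptpn1, Tnfaip3 and Irf2 passed neither without knockout 51 (adjusted p-values of 0.0711 to 0.123) nor without knockout 63 (0.0766 to 0.125). Irf2 had an adjusted p of 0.0504 without control 55.

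In a further list of 74 interferon-induced genes, 71 were tested, 23 rose and 5 fell, with a median of 0.35. Bst2, or tetherin, which is also a surface marker of plasmacytoid dendritic cells, was at 133 and 69.3 CPM in control mice and 1324 and 1434 CPM in knockout mice. Slfn5, a growth-regulating Schlafen gene, was at 28.8 and 27.6 CPM in control mice and 207 and 229 CPM in knockout mice, a rise of 2.95 ± 0.14. Gbp6, Trim30a and Trim30d rose by 2.95 ± 0.21, 1.38 ± 0.14 and 1.75 ± 0.16. The 5 that fell were Ifi27, Oas1c, Slfn4, Gbp9 and Nmi. Across the 5 lists 40 of 121 tested genes were higher and 11 lower, beside 11.3% and 10.9% of all genes. Fewer genes of these lists were called in either direction without knockout 51 or without knockout 63, as was the case over all genes tested.

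**Figure D5:**
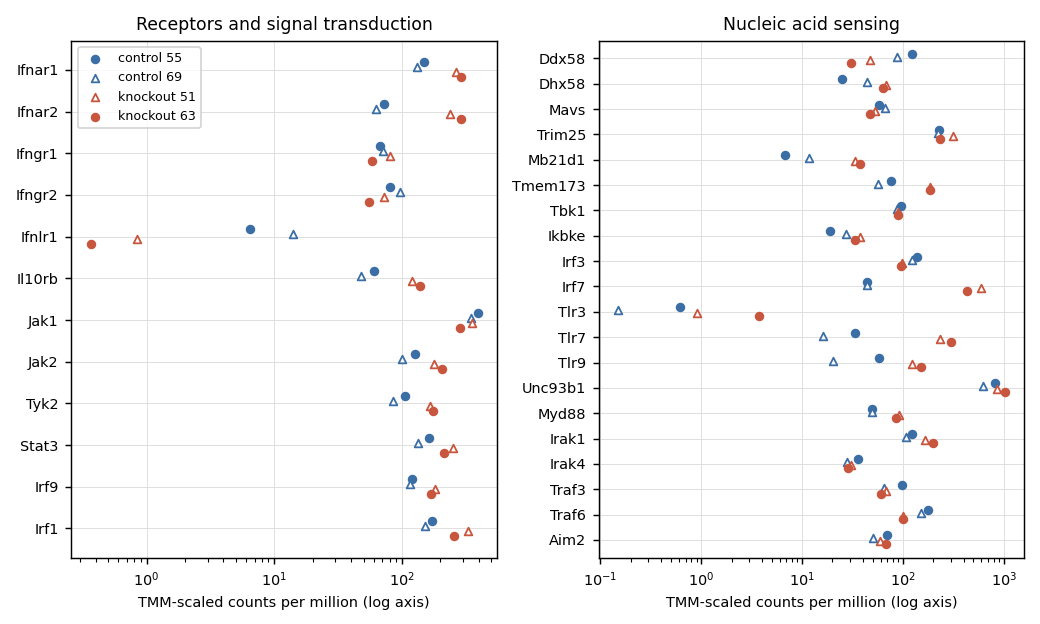
Levels of 12 receptor and signalling genes and 20 nucleic acid sensing genes in each library, as TMM-scaled CPM on log axes, with blue for controls and red for knockouts. Ifnar2, Tyk2, Irf7 and Tlr7 are higher in both knockouts, and Ifnlr1 and Ddx58 lower.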

How the data were processed

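Pro-B cells of 4 mice were sequenced, 2 per genotype, and replicates are separate mice. STAR 2.7.4a, featureCounts, Subread 2.0.0 and the builds GRCm38 and mm10 are among the names in the submitters' processing notes. Annotation, strand setting and treatment of multi-mapping reads were not given in the sources used here. The authors deposited whole-number raw counts per gene symbol, and these counts were used. A second deposited table of normalized values was not used.

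The analysis used edgeR 4.0.16 (R 4.3.3): filterByExpr (minimum count 10, minimum total 15), TMM scaling and the quasi-likelihood F test without covariates, over all 13507 genes kept. SE is the log2 fold change over the square root of F. Alternatives were DESeq2 size factors, no scaling, no filter, a stricter one (mean count of 50 and at least 1 CPM in 2 libraries), DESeq2 1.42.0, voom in limma 3.58.1, mouse sex as a block and each library left out. Male to female ratios and the sex term were added after the data were seen. Single-library ratios of CPM used a pseudocount of 0.1. Levels per kilobase used exon lengths from GENCODE, which may differ from the annotation counted. Exons of 13 members overlap another annotated gene. On simulated data with 13285 genes, 73% of 100 genes changed 4-fold and 24.5% of 98 changed 2-fold were recovered, with 13 false calls. Far fewer genes changed in the simulation than were called in the data, so recovery in the data may differ. The members and lists were chosen with earlier results of these data known. Named genes were the members, Tnpo3, the 5 of each list with the lowest adjusted p, Irf7, Irf9 and the interferon genes, and others were chosen after their values were seen. A planned search for genes of like pattern was not run, since 4 libraries are too few for a correlation. No list test was run. Of the pathway lists, 1 gene is not reported here and was left out of their counts.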

Additional observations from a re-analysis of the deposited data

Results flagged for a closer look

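Each genotype held 1 mouse of each sex, and for 4 of the 38 members the knockout to control ratio had opposite signs in the females and the males. The difference between the sexes was not tested, because a fit with an interaction has no residual degrees of freedom. For Ifit2 the log2 ratio was 1.45 in females and -0.15 in males, a difference (males minus females) of -1.60. For Ifitm2 it was 0.62 and -0.14, a difference of -0.76. For Zbp1 it was -0.01 in females and 0.87 in males, a difference of 0.88, and for Gbp3 it was -0.27 and 0.08, a difference of 0.34. None of the 4 passed for genotype in edgeR.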

How the results depend on the processing

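Each result was recomputed under 11 alternatives. Of the 16 members that rose, 9 passed in each of them, 7 did not pass without knockout 51 and 4 not without knockout 63, and none changed sign. The count of members higher was 16 to 22 under the other alternatives and 9 to 22 with a library left out. The count of members lower, 0 in the main analysis, was 1 (Oas2 wherever all 4 libraries were used) with DESeq2 size factors, without scaling, without a filter, with the stricter filter, with DESeq2 and with mouse sex as a block, and 0 to 1 with a library left out. With a library left out, the median log2 fold change of the members lay between 0.61 and 1.12. Over all genes, 747 to 1649 were higher and 530 to 1580 lower with a library left out, the lowest counts without knockout 63. Of the pathway genes, 22 to 41 were higher and 3 to 15 lower, and 18 were lower with sex as a block. With a library left out, the log2 fold change of Tnpo3 lay between -1.16 and -0.94, and it did not pass without knockout 63.

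With a library left out, 8 of the 22 members that did not pass changed sign. Their log2 fold changes ranged from -0.06 to 0.92 for Zbp1, -0.16 to 1.14 for Oas1a, -0.34 to 1.47 for Oas3, -1.95 to 0.18 for Gbp2, -0.24 to 0.04 for Gbp3, -0.23 to 0.76 for Ifitm2, -0.69 to 1.27 for Rtp4 and -0.04 to 0.62 for Xaf1. The lowest were without knockout 51 for Zbp1, Rtp4, Xaf1, Gbp2 and Gbp3, and without control 55 for Oas1a, Oas3 and Ifitm2. Counts of members higher rose without control 69 (22, gaining Ifit1, Ifit2, Adar, Ifitm2, Ifitm3 and Dtx3l) and without control 55 (18, gaining Ifitm3 and Sp100), and fell without either knockout. The cause was not tested. The median over all genes moved by at most 0.03 under any alternative. Simulated 2-fold changes were recovered in 24.5% of cases, so members that did not pass may have changed by that much undetected. The simulation changed far fewer genes than were called in the data, so the share missed in the data may differ. No paired analysis by mouse number was possible because the genotypes share none. The block on sex, which matches the mice by sex, gave 22 members higher and 1 lower. It also called more of all genes than the main fit, 2137 higher and 2186 lower.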
